A study of Bos taurus with 31 samples.

Results

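Endothelial cells line blood and lymph vessels, and their transcripts are described here in bovine mammary epithelial organoids. The genes are 35 named markers of blood and lymph vessel endothelium, matched by symbol. The list was chosen with earlier results of these data known. Of the 35 genes, 33 matched a row of the count table, out of 14084 rows in all, and SOX7 and ICAM2 matched none. All 33 passed the filter on low counts and were tested.

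The organoids were epithelial clusters freed from gland biopsies with collagenase, trypsin and hyaluronidase and enriched by short spins, which leave single cells in suspension. Biopsies came from 16 dairy cows, whose breed is not given in the sources used here. The virgin group held 15 libraries from heifers of 14 months of age, and the lactating group held 16 libraries from the same animals at 40 to 60 days of lactation, with no other treatment named. The cow of L495 gave only a lactating library, and libraries are called by stage letter and animal number, so that V502 and L502 came from 1 cow. Each lactating biopsy was taken later in life and after calving, so a difference between stages and one due to age, to parity or to the date of the biopsy cannot be told apart.

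Vessels of the mammary gland carry the water, amino acids, glucose and lipids from which milk is made. Endothelial cells respond to growth factors of the VEGF family, angiopoietins and apelin, hold together through cadherin and claudin junctions, and use ETS-family and SOX-family transcription factors and Notch signals to set their identity. Lymphatic endothelium is marked by PROX1, which sets lymphatic fate, by the VEGF-C receptor FLT4 and by the hyaluronan receptor LYVE1.

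With each locus counted once, totals ranged from 12477568 to 38794104 counts per virgin library and from 17637505 to 45478555 per lactating library. Levels are in CPM, counts scaled to a common library size, after TMM factors that correct for unequal RNA composition. No comparison of levels between genes is made, because the locus lengths behind the deposited RPKM values follow the gene span with introns. The organoids expressed luminal epithelial markers at a summed 2868 to 12858 CPM in virgin and 2187 to 5643 CPM in lactating libraries. The 7 milk protein genes CSN1S1, CSN1S2, CSN2, CSN3, LALBA, PAEP and GLYCAM1 took 0.0281% to 0.682% of counts in virgin libraries. In lactating libraries they took 0.243% to 51.5%. L538 and L478 stood apart from the other lactating libraries, with milk protein shares of 0.243% and 0.577%. These shares lie below that of V509 (0.682%) but above that of the next virgin library, V490 (0.188%).

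Endothelial transcripts were more abundant in lactating organoids. Of the 33 genes, 30 were higher in lactation and 0 were lower at an adjusted p under 0.05 in edgeR's quasi-likelihood test, whereas 24.2% of the 13180 tested rows were called higher and 30.9% lower (55.1% in either direction). At an unadjusted p under 0.05 in edgeR, 31 were higher and 0 lower, and DESeq2 called 31 higher and 0 lower. The median log2 fold change of the 33 genes was 1.97, against -0.08 over all tested rows. Called values ran from 1.07 for MMRN2 to 2.95 for DLL4, and 16 were above 2. Without TMM factors the median of all rows moved by -0.47 on the log2 scale, the median of the 33 genes was 1.37, and 26 were called higher. Because these are bulk samples, more endothelial cells and more RNA per cell cannot be told apart.

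The rise was seen within animals as well. The libraries of the same 15 cows could be set side by side, and 23 of the 33 genes were higher in lactation in all 15 animals, a pattern met by 7.41% of tested rows. With the animal as a block, 32 of the 33 genes were called higher, against 27.9% of rows. In the authors' deposited table, 24 of the 33 genes were higher in lactation at an adjusted p under 0.05, against 10.8% of its rows.

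**Figure D1:**
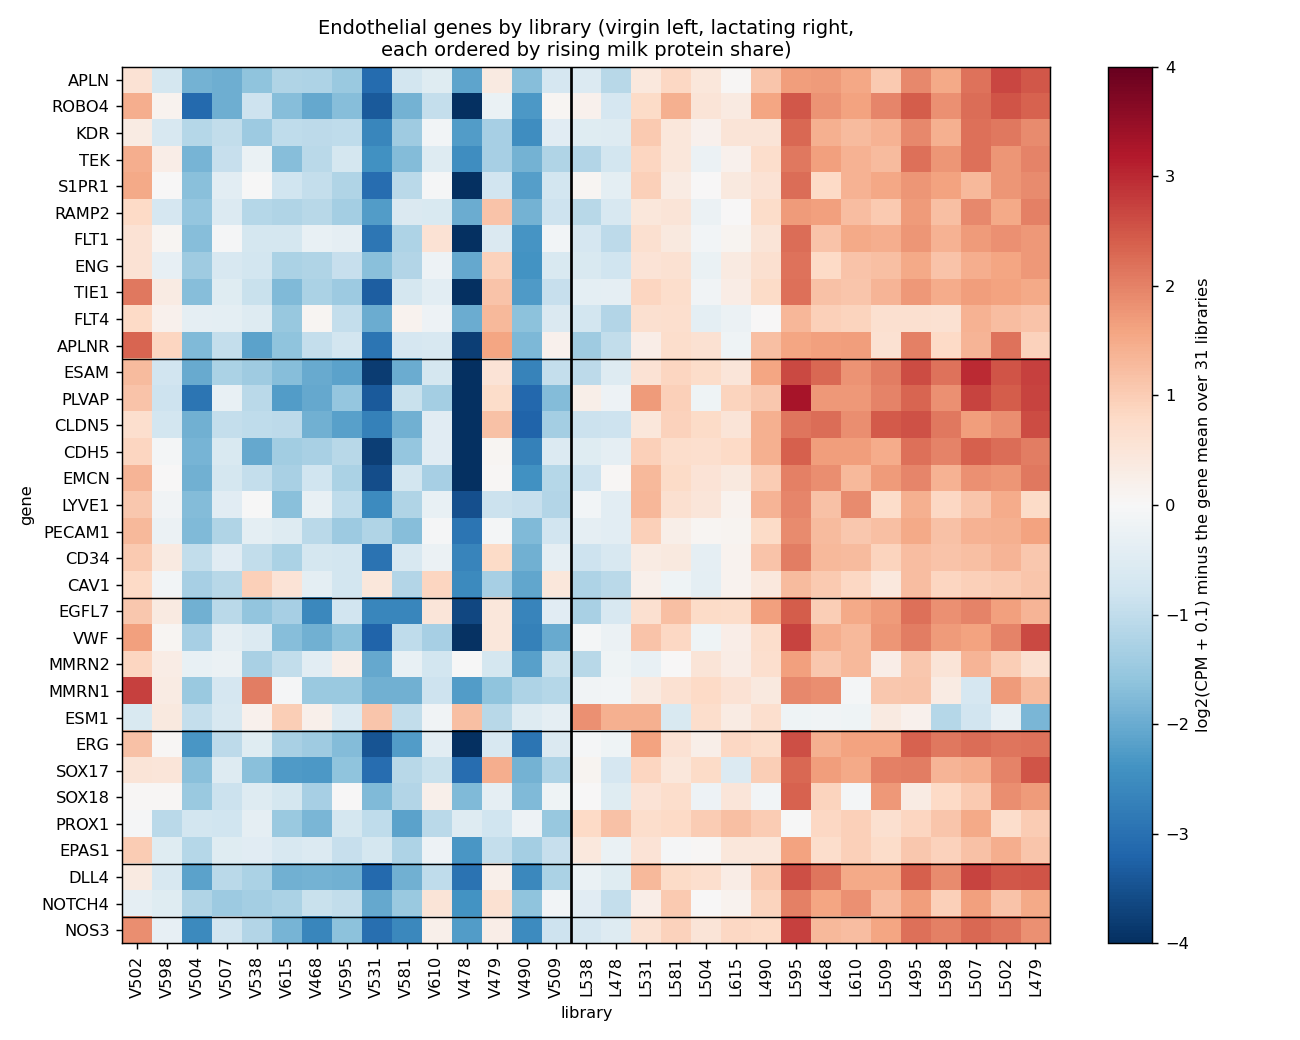
Heat map of 33 endothelial genes (rows, grouped by role) in 31 libraries (columns, virgin left of the line and lactating right of it, each ordered by rising milk protein share). Colour is log2(CPM + 0.1) minus the gene's mean over all libraries, cut at 4 in either direction. Lactating columns are mostly red and virgin columns mostly blue, V502 is the reddest virgin column for many genes, and the rows of ESM1 and PROX1 do not follow the others.

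Virgin libraries differed widely among themselves. V502 was the highest virgin library for 23 of the 33 genes, and V478 was the lowest for 23. In the same direction, the 14 fibroblast genes summed to 22439 CPM in V502 and to at most 2531 CPM in any other virgin library, and the 15 pericyte and smooth muscle genes to 867 CPM against at most 283. Their part in the virgin level was not tested. Leaving V502 out raised the log2 fold change of 32 of the 33 genes, and 32 were then called higher with a median of 2.09. V502 was picked for its high values in these genes, so a rise on its removal adds no support. Leaving out V478 instead lowered CDH5 to 2.36, EMCN to 2.02 and CAV1 to 0.60, and raised ESM1 to 0.46. Fits that each left out 1 library called 28 to 32 genes higher. Among lactating libraries, L478 or L538 was the lowest for 30 of the 33 genes and L595 the highest for 19.

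Receptors and ligands rose together, all 11 of 11, with a median log2 fold change of 1.73. KDR, the main signalling receptor for VEGF-A, had 11.7 CPM in the lowest, 34.1 in the median and 89.0 in the highest virgin library. In lactating libraries KDR had 49.7, 178 and 352 CPM. The lactating libraries were shifted upward as a group, and 13 of the 16 lay above every virgin library. Its log2 fold change was 2.31 ± 0.30 (SE; edgeR adjusted p = 1.34e-07), and it was higher in lactation in 15 of 15 animals. FLT1, a VEGF receptor that also acts as a decoy, ran from 0.979 to 46.1 CPM (median 20.8) in virgin and from 15.0 to 145 CPM (median 75.2) in lactating libraries. It rose by 1.70 ± 0.37, with 10 lactating libraries above the virgin range.

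The angiopoietin receptor TEK ran from 0.921 to 15.6 CPM (median 2.41) in virgin and from 2.42 to 26.6 CPM (median 14.3) in lactating libraries. It rose by 2.03 ± 0.38 log2 units (adjusted p = 4.31e-05, edgeR). TIE1, its partner receptor, rose by 1.42 ± 0.43 (adjusted p = 0.00567, edgeR), and the groups overlapped broadly. V502, at 34.5 CPM, exceeded 15 of the 16 lactating libraries, and V479, at 17.7 CPM, exceeded 8. TIE1 was not called without TMM factors (0.86) or without the 5 animals whose virgin library title carries an added letter (1.17). APLN, the apelin peptide made by sprouting endothelium, was rare at a median of 0.352 CPM in virgin and 2.58 CPM in lactating libraries, and rose by 2.59 ± 0.40.

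APLNR, the apelin receptor, stood nearest to the threshold. It ran from 0.0576 to 10.8 CPM (median 1.02) in virgin and from 0.708 to 9.53 CPM (median 3.83) in lactating libraries. The highest single value was therefore a virgin one, from V502. The log2 fold change was 1.12 ± 0.48 (adjusted p = 0.0494, edgeR). Of 31 fits that each left out 1 library, 24 lost this call. Without V502 it was 1.63 (adjusted p = 0.00224, edgeR), and with the animal as a block 1.70 (adjusted p = 0.000361). Without TMM factors it was 0.56 and not called (adjusted p = 0.289, edgeR).

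FLT4, the receptor for VEGF-C and VEGF-D on lymphatic vessels, was at the limit of detection, with a median of 9 counts in virgin and 16.5 in lactating libraries. It rose by 1.12 ± 0.42 (edgeR adjusted p = 0.0236). That call was also lost without TMM factors (0.58) and without the animals with a lettered virgin title (0.93). The other receptors of this group were ROBO4, a guidance receptor that stabilises vessels, at 2.53, S1PR1, the sphingosine-1-phosphate receptor, at 1.73, RAMP2, which makes the calcitonin receptor-like receptor respond to adrenomedullin, at 1.73, and ENG, a co-receptor for TGF-beta family ligands, at 1.65.

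Junction and surface genes included the classical endothelial markers, and 8 of 9 rose. CDH5, the cadherin of endothelial junctions, had 1.21, 21.4 and 96.7 CPM in the lowest, median and highest virgin library. The corresponding lactating values of CDH5 were 38.0, 159 and 280 CPM. V478 and V531 were the lowest virgin libraries, and 11 lactating libraries lay above every virgin one. The log2 fold change was 2.45 ± 0.40 (edgeR adjusted p = 6.59e-06), higher in 15 of 15 animals.

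ESAM, an adhesion molecule of endothelial tight junctions, rose by 2.88 ± 0.48, from a median of 2.38 CPM to a median of 30.2 CPM. PLVAP, which forms the diaphragms of fenestrated and leaky capillaries, rose by 2.80 ± 0.48, from a median of 5.64 CPM to 55.5 CPM, with L595 highest at 161 CPM. CLDN5, the claudin of endothelial tight junctions, was not counted in V478 and had a median of 0.619 CPM in virgin and 6.23 CPM in lactating libraries, a rise of 2.68 ± 0.47. EMCN, a sialomucin of capillaries and veins, rose by 2.11, LYVE1 by 1.80 and the surface sialomucin CD34 by 1.34. PECAM1, an adhesion molecule of endothelium, platelets and leukocytes, rose by 1.61 ± 0.30, but its row had the same counts as that of POLG2, so the value belongs to a joined locus.

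CAV1, the coat protein of caveolae, is also made by fibroblasts, adipocytes and myoepithelial cells. It had 28.7, 127 and 323 CPM in the lowest, median and highest virgin library and 70.3, 261 and 400 CPM in the lactating ones. The ranges overlapped over most of their length, and the gene was higher in lactation in 10 of 15 animals. The log2 fold change of 0.68 ± 0.31 was not called (edgeR adjusted p = 0.0623). With the animal as a block it was called at 0.84 (adjusted p = 0.0262, edgeR), and so it was in 7 fits that left out 1 library (L478, L504, L538, V502, V538, V610 or V615), with values up to 0.79. Without TMM factors it was -0.00409 (adjusted p = 0.992, edgeR).

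**Figure D2:**
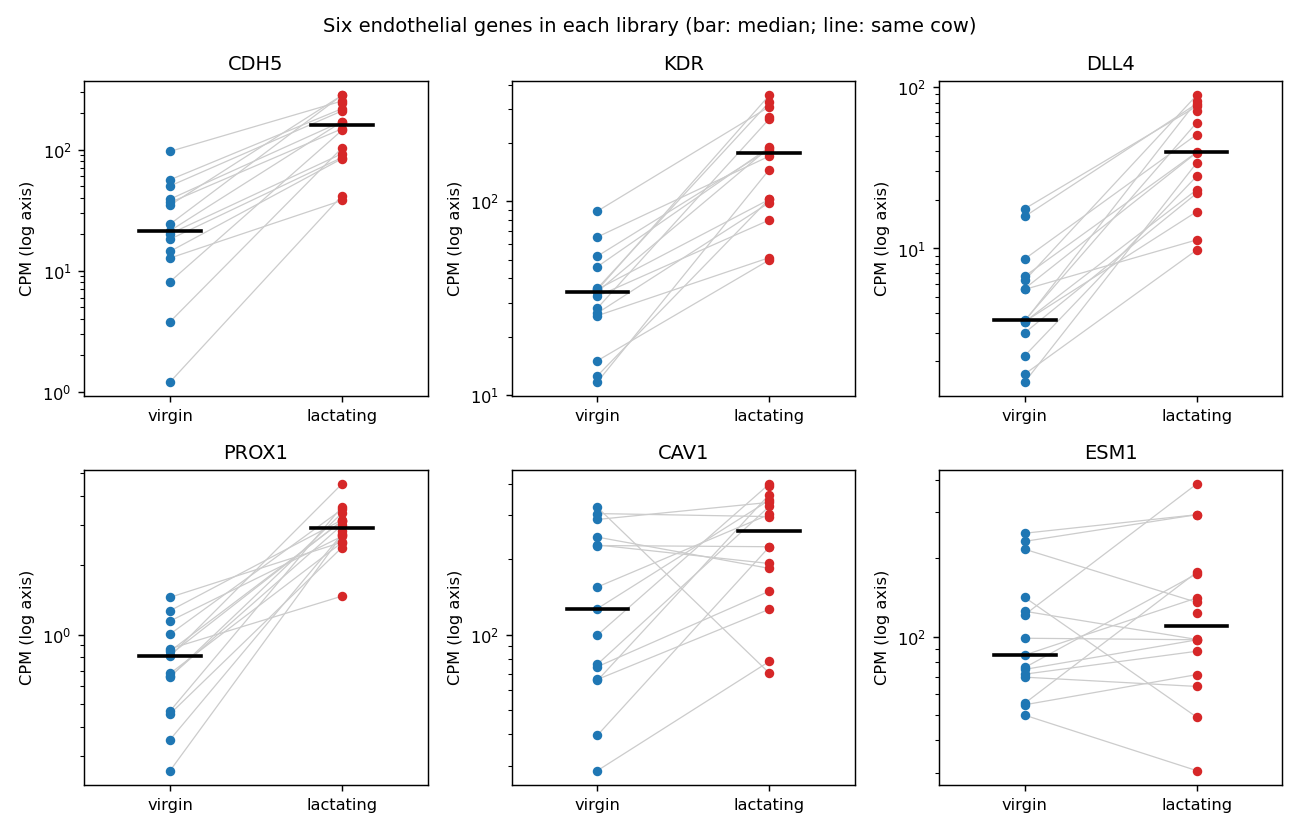
CPM on a log axis of CDH5, KDR, DLL4, PROX1, CAV1 and ESM1 in 15 virgin (blue) and 16 lactating (red) libraries, with a bar at the median and a grey line joining the libraries of 1 cow. The lines of CDH5, KDR, DLL4 and PROX1 rise in all 15 cows, while those of CAV1 and ESM1 cross.

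Secreted proteins were the most divided group, with 3 of 5 called higher. VWF, the clotting factor stored in endothelial granules, ran from 4.89 to 240 CPM (median 30.5) in virgin and from 66.2 to 510 CPM (median 200) in lactating libraries. It rose by 2.13 ± 0.43 (edgeR adjusted p = 0.000103). EGFL7, a matrix protein of growing vessels, rose by 2.21 ± 0.46, and MMRN2, a matrix protein of the endothelial basement membrane, by 1.07 ± 0.26. The MMRN2 locus was 1.62 times as long as the RefSeq gene span, with SNCG as a neighbour, so its counts may include other transcripts, and without TMM factors it was not called (0.52).

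MMRN1, found in platelets and in endothelium of lymphatics, had a median of 4 counts in virgin libraries, and V502 with 3.09 CPM exceeded every lactating library. Its log2 fold change of 0.77 ± 0.55 was not called (edgeR adjusted p = 0.238). It was 1.47 without V502 (adjusted p = 0.0109) and 1.83 with the animal as a block (adjusted p = 0.00926), both called in edgeR. Without V538 it was 1.18 (adjusted p = 0.0679, edgeR).

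ESM1, a proteoglycan released by sprouting tip cells in several species, did not share the pattern. It ran from 49.9 to 250 CPM (median 85.0) in virgin and from 30.6 to 385 CPM (median 110) in lactating libraries. The highest virgin value came from V478, the library lowest for most other genes, and the highest lactating value from L538. The log2 fold change was 0.34 ± 0.30 (edgeR adjusted p = 0.354), with 9 of 15 animals higher in lactation. It was 0.17 without L538 and -0.05 without TMM factors.

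All 5 transcription factors rose. ERG, an ETS-family regulator of endothelial identity, ran from 0.518 to 36.2 CPM (median 6.48) in virgin and from 14.2 to 95.8 CPM (median 48.5) in lactating libraries, a rise of 2.48 ± 0.41. The SOX-family factors SOX17 and SOX18 rose by 2.37 ± 0.50 and 2.11 ± 0.43. However, SOX18 had a median of only 3 counts in virgin libraries. It passed the filter in 21 of the 31 fits that each left out 1 library. EPAS1, a hypoxia-inducible factor subunit that other cell types also make, rose by 1.38 ± 0.22.

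PROX1 differed from the rest in its spread. It had 0.259, 0.809 and 1.45 CPM in the lowest, median and highest virgin library and 1.47, 2.90 and 4.49 CPM in the lactating ones. PROX1 was the 1 gene of the 33 whose groups did not overlap, as was the case for 1.15% of tested rows. Its lowest lactating library was L595, the library highest for most other genes. It rose by 1.91 ± 0.19, with the smallest adjusted p of the 33 genes (1.2e-09, edgeR).

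Both Notch genes rose, as did the enzyme. DLL4, the Notch ligand of tip cells and arteries, had 1.49, 3.59 and 17.6 CPM in the lowest, median and highest virgin library and 9.78, 39.3 and 88.7 CPM in the lactating ones. Only 3 lactating libraries fell within the virgin range. Its log2 fold change of 2.95 ± 0.37 (edgeR adjusted p = 8.82e-08) was the largest of the 33. NOTCH4, the Notch receptor found mainly in endothelium, rose by 1.97 ± 0.33. NOS3, the endothelial nitric oxide synthase, rose by 2.14 ± 0.45, and by 2.71 without V502, whose 16.1 CPM was the highest virgin value against a median of 1.32.

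**Figure D3:**
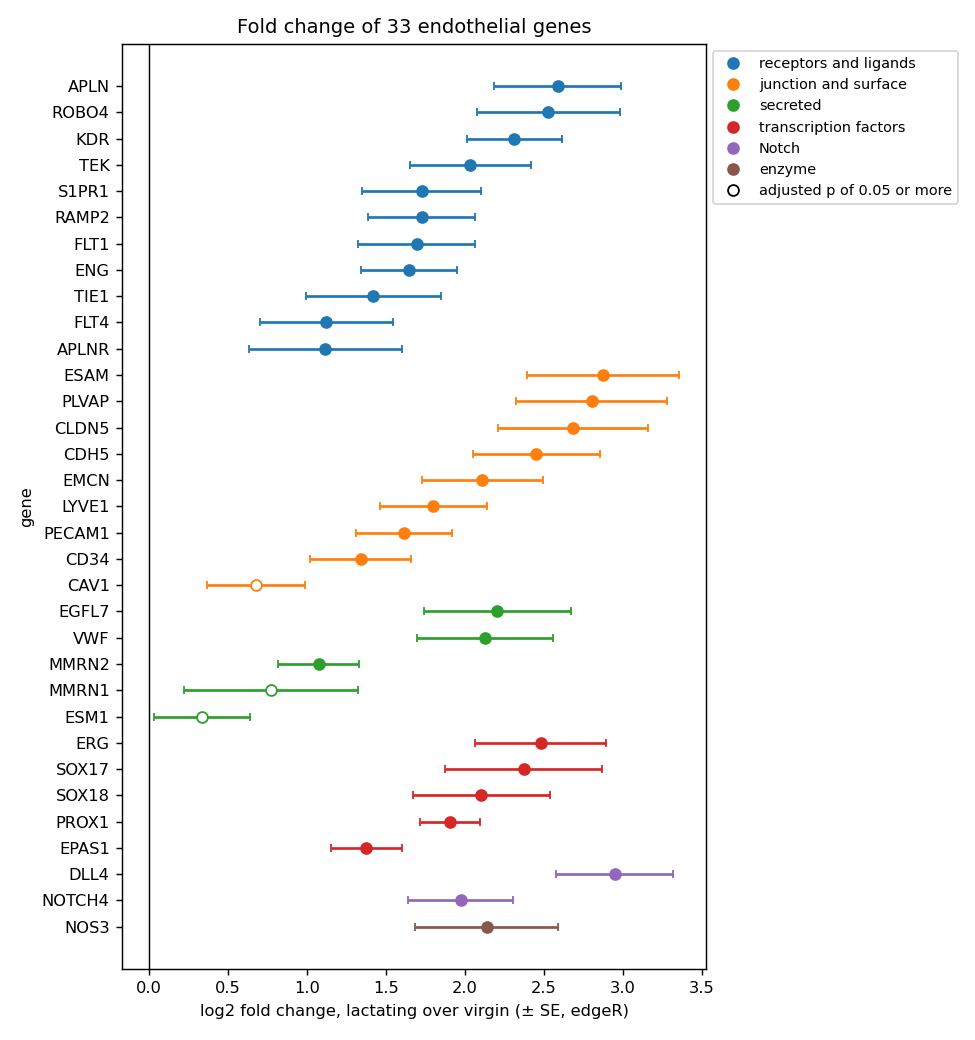
Log2 fold change (lactating over virgin, points) with its SE (bars) from edgeR for 33 endothelial genes, coloured by role; filled points have an adjusted p under 0.05. All points lie to the right of 0, from 0.34 for ESM1 to 2.95 for DLL4, and CAV1, MMRN1 and ESM1 are open.

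The genes did not all change by the same factor. The ratio of each gene to CDH5 was tested between stages with limma on log2 CPM. It was called lower in lactation for 11 of the 32 other genes and called higher for 0. Most rows of the table fell relative to CDH5 (95.1% down, 0.493% up), since CDH5 itself rose. With so many rows called, adjustment changes p little, and the counts at an unadjusted p under 0.05 were the same. All 32 ratios share the CDH5 level (SD of log2 CPM 1.59 in virgin, 0.91 in lactating libraries), so the 11 calls are not independent. The limma fit also draws the variance of each ratio toward that of all rows, which carry the same CDH5 spread. The SE was thus nearly equal across genes (0.49 for RAMP2, 0.52 for FLT4) and does not measure the spread of a single ratio. All 11 calls lay at -1.03 or beyond, so they act much like a cut-off on size. The genes called lower relative to CDH5 were ESM1 (-2.59 ± 0.51), CAV1 (-1.96 ± 0.51), MMRN2 (-1.69), FLT4 (-1.63), EPAS1 (-1.36), CD34 (-1.30), ENG (-1.12), MMRN1 (-1.11), APLNR (-1.06), PECAM1 (-1.03) and RAMP2 (-1.03). The prior count of 2 pulls ratios of rare genes such as FLT4 and MMRN1 downward. Calls of PECAM1, MMRN1 and RAMP2 were near the threshold and were lost in 12, 4 and 2 fits that left out 1 library. With the animal as a block, 19 of 32 genes were called lower. The ratios of PLVAP (0.46 ± 0.49), ESAM (0.39 ± 0.49) and DLL4 (0.18 ± 0.49) to CDH5 were above 0 and not called. With an SE of that origin, the lack of a call does not show that a ratio was unchanged.

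Lactating libraries with more milk transcript had more endothelial transcript. The slope of each gene on the log2 milk protein share was fitted with edgeR over the 16 lactating libraries, for 30 of the 33 genes, since FLT4, MMRN1 and SOX18 did not pass the filter there. It was positive at an adjusted p under 0.05 for 28 of 30 and negative for 1, whereas 19.5% of 12156 rows had a positive and 17.5% a negative call. The median slope of the 30 genes was 0.35 log2 units per doubling of the share, against 0.005 over all rows. Values of the 28 ran from 0.16 for EPAS1 to 0.51 for ESAM. For CDH5 the slope was 0.38 ± 0.04 (edgeR adjusted p = 1.03e-06) and for KDR 0.35 ± 0.05 (adjusted p = 2.67e-05).

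ESM1 was the gene with the negative slope, -0.31 ± 0.06 (edgeR adjusted p = 0.000482). PROX1 had a slope of 0.001 ± 0.037 (adjusted p = 0.988, edgeR). CAV1, not called between stages, had a positive slope of 0.33 ± 0.03 (adjusted p = 8.63e-07, edgeR). For EPAS1 the slope was 0.25 without L538, and the call was lost without TMM factors (0.07).

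**Figure D4:**
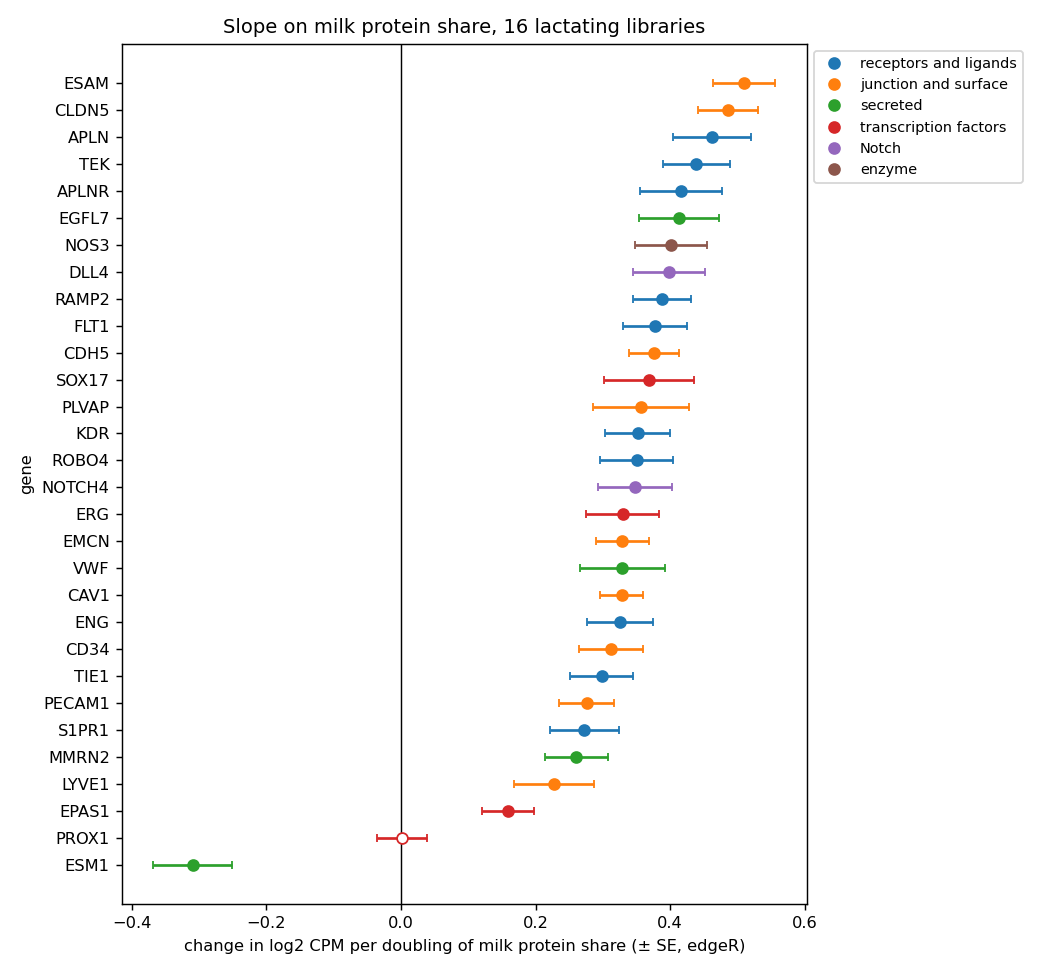
Slope of 30 endothelial genes on milk protein share in 16 lactating libraries (points, change in log2 CPM per doubling of the share) with its SE (bars) from edgeR, coloured by role; the open point is not called. Points from EPAS1 (0.16) to ESAM (0.51) lie above 0, PROX1 at 0.001 and ESM1 at -0.31.

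The slope came from steps between sets of libraries. Milk protein shares fell into 3 clusters, so no correlation over all 16 libraries is given. The mean log2 CPM of CDH5, PECAM1, TIE1, ESAM and KDR was 4.30 and 4.41 in the 2 libraries with the lowest shares (L538 and L478). It was 5.15 to 5.87 in the 5 libraries with shares of 5.13% to 11.4%, and 6.24 to 7.14 in the 9 libraries with 26.1% to 51.5%. In virgin libraries the same mean ran from 0.86 to 6.02 with a median of 3.57. All 9 libraries of the high cluster lay above every virgin library, whereas 4 virgin libraries lay above L538 and 4 above L478.

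Leaving out L478 and L538 kept the direction, with 26 of 30 slopes positive and 1 negative, against 10.8% and 10.2% of rows. EGFL7 (0.29) and LYVE1 (0.14) were then not called. Within the 9 libraries over 20% share, edgeR called 0 of 31 slopes, and 4 had an unadjusted p under 0.05, 2 in each direction. Only 0.00833% of 12009 rows were called there, and 21 of 31 slopes were below 0, against 51.6% of all rows. In these 9 libraries Pearson's r of CDH5 with the log2 share was 0.002 (two-sided exact permutation p = 0.995) and Spearman's rho 0.30 (exact p = 0.437). For PROX1 r was 0.68 (exact permutation p = 0.0531) and rho 0.55 (exact p = 0.133), and for ESM1 r was -0.60 (exact p = 0.0890) and rho -0.63 (exact p = 0.0760). A relation within the high cluster was thus not detectable with 9 libraries.

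**Figure D5:**
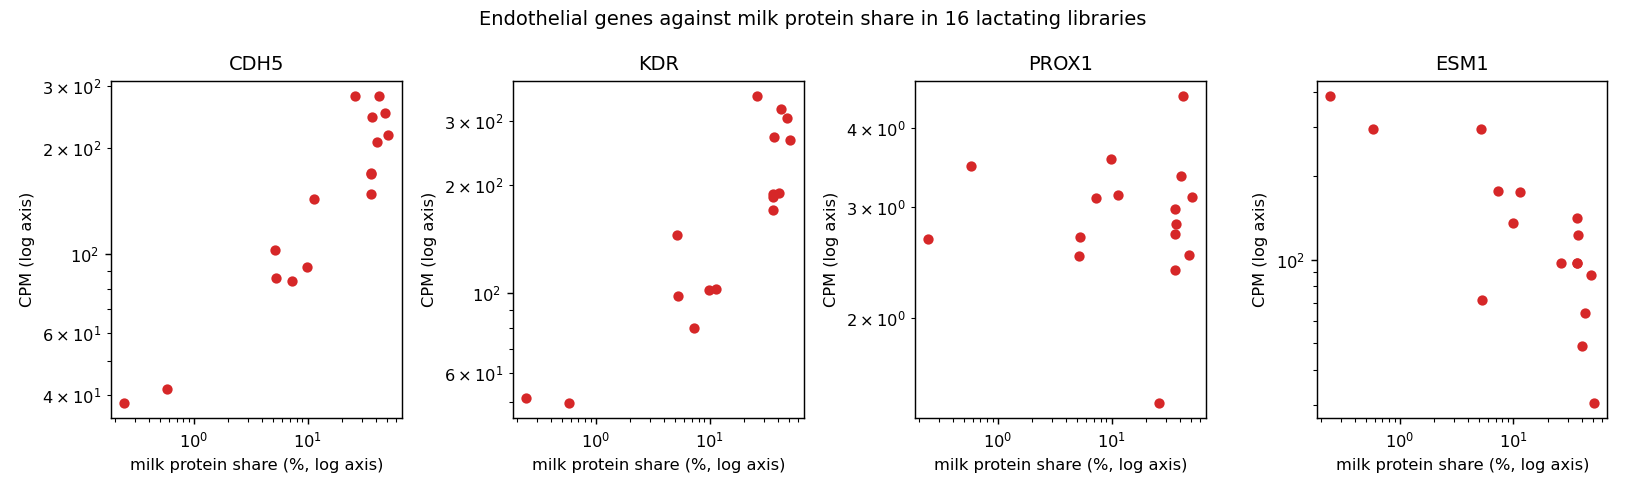
CPM of CDH5, KDR, PROX1 and ESM1 (log axis) against milk protein share (percent of counts, log axis) in 16 lactating libraries, 1 point each. CDH5 and KDR step up between 3 clusters of libraries (shares up to 0.577%, 5.13% to 11.4%, and 26.1% to 51.5%), PROX1 shows no step, and ESM1 runs downward with overlap between clusters.

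Most of the 33 genes varied together. The median Pearson's r between pairs of them, given as a description of libraries that share depth and composition, was 0.77 over 15 virgin libraries (median Spearman's rho 0.72) and 0.87 over 16 lactating libraries (0.82). It was 0.78 without L478 and L538 and 0.46 within the 9 libraries of high milk share. ESM1 ran against the others, with a median r of -0.45 in virgin and -0.69 in lactating libraries, though it was -0.47 without L478 and L538 and -0.14 within the 9. PROX1 had values of 0.03 in virgin and -0.27 in lactating libraries, and was the lowest of the 33 genes within the 9 (-0.30). The lymphatic markers FLT4 (0.75 and 0.88) and LYVE1 (0.75 and 0.75) did go with the other genes. Which cells made the PROX1 and ESM1 transcripts was not tested. CAV1 went with the other genes in lactating (0.91) more than in virgin libraries (0.42), a difference that was not tested.

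The genes outside the list whose profile was most like the mean of CDH5, PECAM1, TIE1, ESAM and KDR, by the mean of the virgin and lactating Pearson's r among 10133 ranked rows, were PTPRM (0.99), ADCY4 (0.98), FGD5 (0.98), RASIP1 (0.97), ECSCR (0.97), COL4A1 (0.96), SEMA6B (0.95), ADAMTS4 and B4GALT3 (0.95, a single joined locus) and GNG11 (0.95). All 10 rows were called higher in lactation by edgeR, against 24.2% of all tested rows. Their log2 fold changes ran from 1.08 for COL4A1, a basement membrane collagen chain, to 2.47 for SEMA6B.

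Whether a cow kept its endothelial level from the virgin to the lactating stage was asked over 15 animals. The median Spearman's rho between stages was 0.54 for the 33 genes and 0.20 for all rows. No gene passed adjustment over all rows (0 of 33, against 0.0835% of rows), and at an unadjusted permutation p under 0.05 there were 20 of 33, against 11.5% of rows. Leaving out single cows, that count ran from 7 without the cow of V478 to 23 without that of V595. It was 9 without the cow of V502, 12 without that of V479 or V504, 13 without that of V531 and 22 without that of V538. It was 3 without TMM factors. CDH5 had the highest rho, 0.77 (permutation p = 0.00145, adjusted p = 0.178), with Pearson's r = 0.72. Without the cows of V478 and V531, whose virgin level was farthest from the median, r was 0.64 (permutation p = 0.0182) and rho 0.74 (permutation p = 0.00567). For PROX1 rho was -0.01 (permutation p = 0.974).

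Further endothelial genes outside the list behaved alike. Of 34 tested, 30 were higher and 1 was lower, with a median log2 fold change of 1.93 (25 and 4 without TMM factors). Over all tested rows, 24.2% were called higher and 30.9% lower. GPR4, a proton-sensing receptor, rose by 2.54 ± 0.33, FLI1, an ETS factor, by 2.37 ± 0.31, and GIMAP4 by 2.17 ± 0.28. Leukocyte genes also rose (17 of 19, below), and the part of leukocytes in the rises of FLI1 and GIMAP4 was not tested. ECE1, the endothelin-converting enzyme, which other cells also make, fell by 0.42 on the log2 scale. On milk protein share, 31 of these 34 genes had a positive slope called and 0 a negative one, against 19.5% and 17.5% of rows.

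Markers of vessel type were mixed, with 9 of 22 higher and 3 lower, against 24.2% and 30.9% of all tested rows. Without TMM factors 4 were higher and 7 lower, and without V502 the counts were 12 and 3. GJA4, an arterial connexin, rose by 2.62 ± 0.38, ICAM1, an adhesion molecule of activated endothelium that leukocytes and epithelium also make, by 2.35 ± 0.21, and UNC5B, a netrin receptor, by 1.18 ± 0.21. PDPN, a lymphatic marker that myoepithelial cells also express, fell by 1.05, EPHB4, a venous receptor, by 0.71 and EFNB2, its arterial ligand, by 0.47. Which cells made the PDPN, EPHB4 and EFNB2 transcripts was not tested. The EFNB2 row shared its counts with ARGLU1, and the ICAM1 row with a row that has no symbol. On milk protein share, 12 of 22 slopes were positive and 0 negative, against 19.5% and 17.5% of rows.

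A list of angiogenic ligands, co-receptors and hypoxia-response transcription factors had 33 tested genes. Of these, 22 were higher and 4 lower, against 24.2% and 30.9% of all tested rows (16 and 6 genes without TMM factors). VEGFA, the ligand of KDR and FLT1, rose by 1.20 ± 0.13, from a median of 98.9 CPM to 254 CPM, in 15 of 15 animals. Other ligands of the receptors above, named here for that pairing, were VEGFB (0.96 ± 0.21), VEGFC (1.79 ± 0.36), VEGFD (3.29 ± 0.42), ANGPT1 (1.98 ± 0.32), ANGPT2 (2.29 ± 0.45) and ADM (1.92 ± 0.23), all called higher. PGF was at -0.37 ± 0.23 and not called (edgeR adjusted p = 0.180). PDGFA, which recruits pericytes and fibroblasts, rose by 1.52 ± 0.17. The 4 that fell were GDF15 by 2.06, FGF1 by 1.36, THBS1, an inhibitor of angiogenesis, by 0.72 and SLIT2 by 0.44 on the log2 scale. On milk protein share, VEGFA had a slope of 0.11 ± 0.02 (edgeR adjusted p = 0.00142) and ADM one of -0.07 ± 0.05, not called (adjusted p = 0.297, edgeR). In the whole list, 12 of 32 slopes were positive and 6 negative, against 19.5% and 17.5% of rows. The summed level of the list had a median of 9553 CPM in virgin and 7303 CPM in lactating libraries, with overlapping ranges.

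Markers of other cell types moved in part with the endothelial genes. Of all tested rows, 24.2% were called higher and 30.9% lower between stages, and 19.5% of slopes were positive and 17.5% negative. Of 15 pericyte and smooth muscle genes, 10 were higher and 1 (ANPEP, at -0.71) was lower, with 8 and 3 without TMM factors. ANPEP was not called without V502 (-0.57). RGS5 rose by 2.13 ± 0.40, ABCC9 by 2.17 ± 0.40 and KCNJ8 by 2.38 ± 0.43, and the summed level ran from 54.5 to 867 CPM in virgin and from 145 to 881 CPM in lactating libraries. On milk protein share 12 of 15 pericyte slopes were positive. Of 19 leukocyte genes, 17 were higher, also without TMM factors, with sums of 30.7 to 164 CPM and 231 to 727 CPM that did not overlap, but 2 of 18 had a positive slope on milk protein share. CD53 rose by 2.48 ± 0.24, CD8A by 2.61 ± 0.23 and CD14 by 3.46 ± 0.28, the last from a locus 25.9 times the RefSeq span.

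Adipocyte genes had 5 of 9 higher and 1 lower (2 and 2 without TMM factors), with FABP4, which capillary endothelium also makes, up by 4.38 ± 0.65, CFD up by 2.13 ± 0.39 and PLIN1 down at -1.18 ± 0.20. Fibroblast genes had 2 of 14 higher and 4 lower (1 and 4 without TMM factors), with PI16 up by 2.48 ± 0.42, DCN at -0.67 ± 0.15 and COL1A1 at -1.87 ± 0.61. The fall of COL1A1 rested on V502: its lactating median of 157 CPM was above its virgin median of 133 CPM, and without V502 it was at -0.21 and not called (edgeR adjusted p = 0.651). Without that library 6 fibroblast genes were higher and 1 was lower. Luminal epithelial genes had 3 of 15 higher and 7 lower (0 and 9 without TMM factors), with KIT up by 0.79 ± 0.13, FOXA1 at -1.87 ± 0.27 and KRT18 at -2.24 ± 0.37, and 10 of 15 slopes on milk protein share were negative. Myoepithelial genes had 2 of 12 higher and 4 lower (1 and 6 without TMM factors), the 4 lower being 3 distinct loci since KRT14 and KRT17 shared 1 set of counts. OXTR was up by 1.22 ± 0.23, and KRT5 (-1.68) and KRT14 (-1.24) were read from loci joined with other keratins. With all libraries, the fibroblast and myoepithelial counts were near the shares over all tested rows (24.2% higher, 30.9% lower). On milk protein share, 4 of 8 adipocyte, 5 of 14 fibroblast and 7 of 11 myoepithelial slopes were positive and 0 were negative. Of the red cell and platelet list only ITGA2B was tested, at -0.49 ± 0.18 (edgeR adjusted p = 0.0195). The 7 milk protein genes were all higher, with CSN3 at 6.19 ± 0.52, GLYCAM1 at 11.3 ± 1.4 and LALBA, in a joined locus, at 10.7 ± 1.4. The part of these cell types, of milk transcripts or of tissue digestion in the endothelial difference was not tested.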

How the data were processed

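Organoid RNA was sequenced as strand-specific poly-A libraries from RNA with an integrity number of at least 7.5, per the labels' protocols. The authors deposited raw read counts per gene, and a second table of RPKM values with the adjusted p-value and log2 fold change of their own test. The submitters' processing notes name build UMD3.1, featureCounts 1.5.2, StringTie 1.3.2, edgeR, SAMtools and HISAT2 2.0. The role and settings of each tool, strand included, were not given in the sources used here. Locus lengths were recovered from count over RPKM and compared with RefSeq spans of assembly ARS-UCD2.0: 21 of 33 genes lay within 10% of the span, and the range was 0.247 to 1.62 times. Reads of joined loci can inflate a count.

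Counts were analysed with edgeR 4.0.16 in R 4.3.3 (filterByExpr with a minimum count of 10 and total of 15, TMM, robust glmQLFit, glmQLFTest), with stage as the term over 31 libraries, or the log2 milk protein share as the term over 16 lactating libraries. Benjamini-Hochberg adjustment ran over all tested rows, with a threshold of 0.05. SE is the log2 fold change divided by the square root of F. Ratios to CDH5 used limma 3.58.1 (prior count 2), an analysis added after the data were seen, as was the fit within the 9 libraries of high share. Relations across cows used 100000 resamples. DESeq2 1.42.0, no TMM, other filters, an animal block and left-out libraries were alternatives. The members and lists were chosen with earlier results of these data known. Named were all members, the 3 called genes of smallest p in each other list, the milk protein genes and the 10 rows most like the endothelial mean (average log2 CPM of at least 1). Ligands of member receptors, and genes against a list's main direction, were added after their values were seen.

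Libraries of both stages carry the cow's number and were paired by it, per the series' design text. After removal of group means, own-animal correlations were 0.0673 to 0.392 (mean 0.222), against a mean of -0.016 with other animals. Libraries of 1 stage come from separate animals, and the fit without a block treats both libraries of a cow as independent. No pair of libraries agreed within sampling noise (lowest chi-square per degree of freedom 35.0 in virgin and 45.5 in lactating pairs). On simulated data for the stage comparison (13114 rows, 50 changed per size), 14 of 50 rows changed 1.5-fold were recovered, 39 at 2-fold, 46 at 4-fold and 50 at 8-fold, with 2 false among 151 calls.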

Additional observations from a re-analysis of the deposited data

How the results depend on the processing

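Between 26 and 32 of the endothelial genes were called higher in lactation and 0 lower under all alternatives run, and leaving out single libraries gave 28 to 32. The fewest were called without TMM factors (26 of 33) and without the animals with a lettered virgin title (26 of 32). For the slope on milk protein share, 27 to 32 were called, and 29 to 30 with single libraries left out. With the animal as a replicate block, 32 genes were called between stages, adding CAV1 and MMRN1, and 19 in place of 11 had a ratio to CDH5 that differed, all 19 lower; single libraries left out gave 8 to 14. The block changed no other stage call. Directions reversed only for values that were not called: without TMM factors CAV1 was at -0.00409 and ESM1 at -0.0486, the PROX1 slope was -0.00615 with DESeq2, -0.094 without TMM factors, -0.000393 without the filter, -0.00117 on the share of CSN2 alone and -0.0207 to 0.0240 with single libraries left out, and the ratio of ERG to CDH5 was -0.00399 to 0.160 with single libraries left out. The cause was not tested. SOX18, FLT4 and MMRN1 had too few counts to pass the filter of the slope fit. PECAM1 shares its counts with POLG2, and MMRN2 may hold reads of other transcripts.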
